A study of Bubalus bubalis with 12 samples.

Results

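In sperm chromatin, 9 genes that mark somatic cell lineages were followed: the leukocyte genes CSF1R, CXCR2 and LCP2, the epithelial genes CLDN4, ESRP1 and KRT18, the endothelial gene VWF, the smooth muscle gene MYH11 and the mesenchymal gene VIM. They were taken by name, as all non-control probes carrying these gene symbols, 139 of 177440 probes and 9 of 9328 symbols on the array. All 139 probes passed the filter on dim input signal, and all 9 genes had the 2 kept probes needed to enter the fits over 6805 genes. The genes were chosen by lineage with fertility results of these arrays known, and CSF1R and CLDN4 were selected on their H3K4me2 ratios, low in the high-fertile bulls. Their fertility differences are therefore given as descriptions without a test. Whether results on the marks themselves also entered the choice is not known.

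The samples were spermatozoa of water buffalo (Bubalus bubalis), taken out of frozen semen of 3 high-fertile bulls (HF2, HF3 and HF5) and 3 subfertile bulls (SF1, SF4 and SF5), and the labels name no other treatment and no age. Each bull gave 1 array for H3K4me2 and 1 for H3K27me3, so that 12 arrays in 4 groups of 3 entered. Chromatin cut with micrococcal nuclease was precipitated with an antibody to the mark and hybridised in Cy5 together with the same bull's input DNA in Cy3, always in this orientation. A gene value is the mean over its probes of log2(ChIP / input) after subtracting the array's median probe, so 0 is the level of the median probe and no absolute amount is given.

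In spermatids most histones are exchanged for protamines, and the nucleosomes that stay in mature sperm are known to carry marks such as H3K4me2, typical of open promoters, and H3K27me3, placed by Polycomb complexes at silenced genes. Lineage markers are typically active in their own somatic lineage, and semen can carry leukocytes and epithelial cells beside sperm. Whether these genes were silent in the germ cells was not measured. The roles given below are those known from human and mouse. In such bulk samples fewer cells of a type and less of a mark per cell cannot be told apart.

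The array file, which places probes on the cattle genome (HGSC Btau_3.1), classes 120 of the 139 probes as CpG island, 17 as promoter and 2 as coding. ESRP1 and VIM held 108 of them, and the other 7 genes had 2 to 9 probes each. Per array, 97.1% to 99.9% of all probes had input signal well above background, and 93.9% to 99.98% had such ChIP signal. Of the 1668 spots of the marker genes, 6 in the ChIP colour and 4 in the input colour were not well above background. The H3K4me2 arrays of HF5 and SF5 and the H3K27me3 array of HF5 favoured probes rich in G and C. The median ratio of probes with 53.3% G and C or more, minus that of probes with 46.7% or less, was 0.90, 1.02 and 0.65 on these arrays, against -0.24 to 0.22 on the other 9 arrays.

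CSF1R encodes the receptor through which colony-stimulating factor keeps macrophages alive. Its 3 probes lie in an annotated CpG island at chr7:60851524-60851861, where only the coding probe has its own position, chr7:60851747-60851806. They are shown because the second and the coding probe share a run of 43 bases and moved together, apart from the first. Here and below the letters run as the array file gives them, on a strand it does not state, and capitals mark CpG dinucleotides.
CSF1R island probe 1: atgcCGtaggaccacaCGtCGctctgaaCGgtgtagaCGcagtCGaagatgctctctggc
CSF1R island probe 2: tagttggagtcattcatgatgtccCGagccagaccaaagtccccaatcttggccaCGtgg
CSF1R coding probe 3: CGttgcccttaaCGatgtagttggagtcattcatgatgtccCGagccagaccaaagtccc

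For H3K4me2, CSF1R stood at 0.65 in HF2, -1.28 in HF3 and 0.17 in HF5, against 0.84 in SF1, 0.65 in SF4 and 1.28 in SF5. HF3 was the only bull below the array median, and SF5 was the highest. The groups did not overlap, by a margin without weight, since HF2 read 0.646284 and SF4 0.646306. The group means were -0.15 ± 1.01 in the high-fertile and 0.92 ± 0.33 in the subfertile group (SD, n = 3 each, as in all group means below), a difference of -1.08. Without HF3 the difference was -0.51, and between HF5 and SF1, which shared a slide, it was -0.66. Island probe 1 ran the other way, at 0.82, against -1.80 at probe 2 and -2.26 at probe 3: in HF3 it stood at 0.35, while probes 2 and 3 stood at -1.87 and -2.33. For H3K27me3, CSF1R read 0.32, -0.88 and 0.37 in HF2, HF3 and HF5, against 0.25, 0.59 and -1.05 in SF1, SF4 and SF5. Here HF3 and SF5, a bull of each group, were the low ones, the groups overlapped, and the difference was 0.00. HF3 also had the highest input signal at CSF1R, 1.52 against 0.17 to 0.54 in the other 5 bulls (log2, relative to the array median, mean of both arrays). The part of the input in the result was not tested beyond the setting that replaced each bull's input by the mean of the 6 bulls, under which the H3K4me2 difference was -0.57. Under the same setting the H3K27me3 difference was 0.70. Without HF5 and SF5 together the H3K27me3 difference was -0.70.

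CXCR2 encodes the receptor for interleukin-8 that draws neutrophils to sites of inflammation. All 3 of its probes are promoter probes poor in CpG, and probes 2 and 3 lie 39069 bases and more from the first, at chr2:110581478-110581537. They are shown because SF5 was far above the other bulls at both for H3K4me2.
CXCR2 promoter probe 2, chr2:110620547-110620606: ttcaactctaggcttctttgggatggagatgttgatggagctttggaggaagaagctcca
CXCR2 promoter probe 3, chr2:110621107-110621166: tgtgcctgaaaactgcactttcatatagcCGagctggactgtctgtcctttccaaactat

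CXCR2 had H3K4me2 values of 0.25 in HF2, 1.07 in HF3 and -0.08 in HF5, against -0.62 in SF1, 0.10 in SF4 and 2.77 in SF5. SF5 stood far above the other 5 bulls, with 3.50 at probe 2 and 4.11 at probe 3 but 0.70 at the distant probe 1. The means were 0.41 ± 0.59 in the high-fertile and 0.75 ± 1.79 in the subfertile group, a difference of -0.34 whose sign turned to 0.68 without SF5. Its H3K27me3 values were 0.29, 1.61 and 0.28 in HF2, HF3 and HF5, against -0.62, -0.69 and 0.96 in SF1, SF4 and SF5. All high-fertile bulls were above the array median and SF5 was the only subfertile bull to join them, so the groups overlapped at a difference of 0.84. The input of HF3 was the lowest of the 6 bulls here, -1.19 against -0.37 to 0.37. Over the mean input of the 6 bulls the H3K27me3 difference was 0.20 and the H3K4me2 difference -1.16. Between HF5 and SF1 on their shared slide the differences were 0.89 for H3K27me3 and 0.54 for H3K4me2.

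LCP2 encodes an adaptor that relays signals from the T cell receptor. It was measured by a promoter probe without a CpG and by a CpG island probe 23075 bases away, which are shown because they separated for H3K4me2 but were both low for H3K27me3.
LCP2 promoter probe 1, chr20:966973-967032: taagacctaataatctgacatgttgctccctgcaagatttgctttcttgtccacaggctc
LCP2 island probe 2, chr20:990048-990107: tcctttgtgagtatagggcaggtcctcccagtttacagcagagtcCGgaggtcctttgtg

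LCP2 was the lowest of the 9 genes for both marks. Its H3K27me3 values were -1.06, -1.25 and -0.74 in HF2, HF3 and HF5, against -0.51, -1.04 and -0.38 in SF1, SF4 and SF5, so it was below the array median in 6 of 6 bulls. Of all genes tested, 1.88% were below in 6 of 6 bulls for this mark, and LCP2 was the only one of the 9 markers to be so. For H3K4me2 0 of 9 markers were below in 6 of 6 bulls, against 1.57% of genes. On the H3K27me3 arrays LCP2 lay between the 3.03 and the 29.0 percentile of the genes, and on the H3K4me2 arrays between the 9.85 and the 74.0 percentile. For H3K27me3 the promoter probe averaged -1.48 in the high-fertile and -0.63 in the subfertile group, and the island probe -0.56 and -0.66. For H3K4me2, LCP2 read 0.24 in HF2, -0.69 in HF3 and -0.90 in HF5, against -0.27 in SF1, -0.73 in SF4 and -0.50 in SF5. HF2 was the only bull above the median, and the group means nearly coincided, at -0.45 ± 0.60 in the high-fertile and -0.50 ± 0.23 in the subfertile group. The H3K27me3 difference was -0.37, with overlapping groups. Between HF5 and SF1 on their shared slide the differences were -0.63 for H3K4me2 and -0.23 for H3K27me3.

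**Figure D1:**
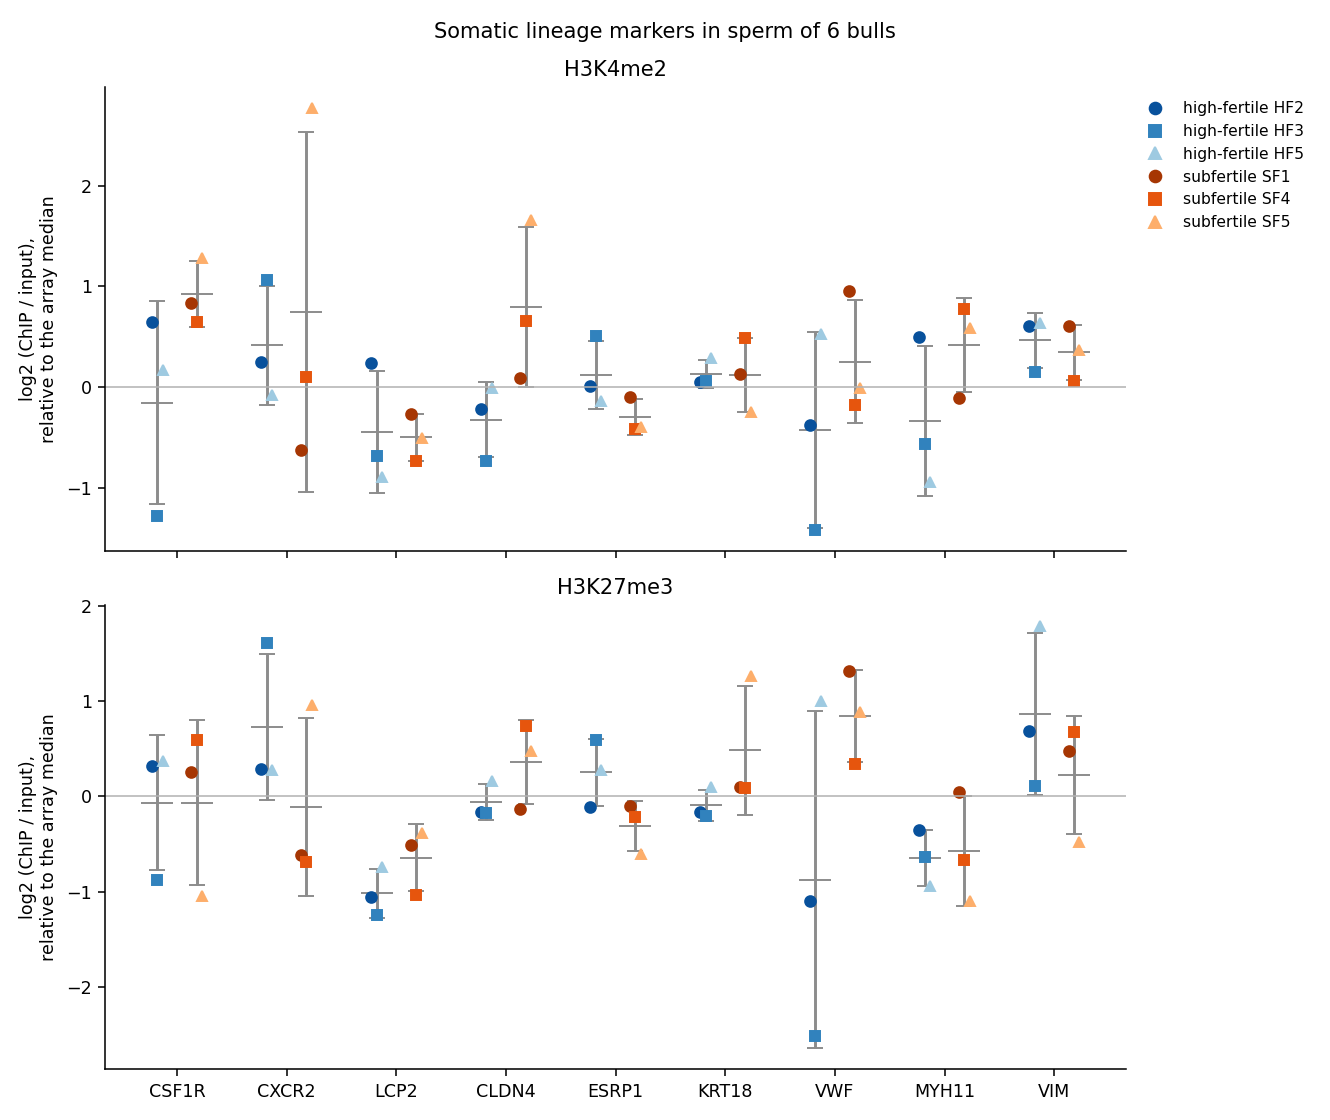
Log2(ChIP / input) relative to the array median (vertical axes) for each marker gene, H3K4me2 above and H3K27me3 below; points are bulls, high-fertile left of subfertile, and bars the group mean ± SD (n = 3). Only CSF1R and CLDN4 for H3K4me2 had groups without overlap, CSF1R by 0.646284 in HF2 against 0.646306 in SF4.

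CLDN4, a claudin of epithelial tight junctions, has 3 probes in a CpG island at chr25:35539351-35540254, for which the array gives the island and not each probe's place. With a mean of 58.3% G and C they were the richest of the markers. They are shown because the first held most of the spread between bulls.
CLDN4 island probe 1: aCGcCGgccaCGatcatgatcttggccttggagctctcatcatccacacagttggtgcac
CLDN4 island probe 2: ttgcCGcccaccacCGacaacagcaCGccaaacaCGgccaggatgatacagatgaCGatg
CLDN4 island probe 3: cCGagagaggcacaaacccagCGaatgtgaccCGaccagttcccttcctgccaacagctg

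H3K4me2 at CLDN4 read -0.22 in HF2, -0.74 in HF3 and -0.01 in HF5, against 0.09 in SF1, 0.66 in SF4 and 1.66 in SF5. All high-fertile bulls were below the array median and all subfertile bulls above it, with HF5 and SF1 close to each other across the gap. CSF1R and CLDN4 were the 2 of 9 genes whose high-fertile values all lay under the subfertile ones, a pattern that 3.1% of the tested genes showed for H3K4me2 and that chose them, so nothing is read from that count. The means at CLDN4 were -0.32 ± 0.37 in the high-fertile and 0.80 ± 0.80 in the subfertile group, a difference of -1.12, which was -0.69 without SF5, -0.85 without HF5 and SF5, and -0.09 between HF5 and SF1 on their shared slide. Probe 1 ran from -1.92 in HF5 to 2.36 in SF5 and differed by -2.25, against -0.20 at probe 2 and -0.92 at probe 3. The ChIP colour carried this difference, with -0.95 in ChIP and 0.17 in input. With each probe centred on probes of equal G and C count the difference was -1.07. For H3K27me3, CLDN4 read -0.16, -0.17 and 0.16 in HF2, HF3 and HF5, against -0.13, 0.73 and 0.47 in SF1, SF4 and SF5. SF4 and SF5 were above all high-fertile bulls and SF1 was not, and the difference of -0.42 again lay in probe 1, at -1.20. Between HF5 and SF1 on their shared slide the gene's H3K27me3 difference turned to 0.29. With slide as a random block in a fit of all 12 arrays it was -0.08.

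ESRP1 encodes a splicing factor that sets epithelial exon choice. Its 73 probes fall into 4 blocks of overlapping probes between chr14:67994128-67999042 (65 in CpG islands and 8 in promoters). A probe of the quiet block 2 and one of block 3, where bulls diverged, are shown.
ESRP1 island probe 39, chr14:67995757-67995816: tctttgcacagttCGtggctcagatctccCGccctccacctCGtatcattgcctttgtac
ESRP1 island probe 58, chr14:67995991-67996050: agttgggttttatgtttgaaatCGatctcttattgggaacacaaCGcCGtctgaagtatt

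Averaged over all probes, ESRP1 stayed near the array median. For H3K4me2, ESRP1 read 0.01 in HF2, 0.50 in HF3 and -0.14 in HF5, against -0.10 in SF1, -0.41 in SF4 and -0.40 in SF5. Its H3K27me3 values were -0.11, 0.59 and 0.28 in HF2, HF3 and HF5, against -0.11, -0.22 and -0.61 in SF1, SF4 and SF5. The subfertile bulls were all below the median for both marks, the groups met at HF5 and SF1 for H3K4me2 and at HF2 and SF1 for H3K27me3, and the differences were 0.42 and 0.57. Between HF5 and SF1 on their shared slide the differences were -0.05 for H3K4me2 and 0.38 for H3K27me3. Overlapping probes do not count as separate evidence, and 61 of 73 were higher in high-fertile bulls for H3K4me2 and 68 of 73 for H3K27me3.

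Along ESRP1 the blocks of 16 and more probes differed in how far the bulls lay apart. In the 25 probes of block 3 H3K4me2 averaged -0.10 in HF2, 1.00 in HF3 and -0.57 in HF5, against 0.10 in SF1, -1.50 in SF4 and -0.33 in SF5, while the 16 probes of block 2 stayed between -0.54 and 0.25. Block 4, which is a single probe, spread the bulls still wider, between 2.13 in SF1 and -1.70 in SF5. At probe 58 alone HF3 reached 3.28 and SF4 -3.64. The input of HF3 in block 3 was -1.31 on its H3K4me2 array, against -0.20 to 0.45 in the other 5 bulls, and over the mean input of the 6 bulls the gene's H3K4me2 difference was 0.14.

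KRT18 encodes a keratin of simple epithelia. It has 3 island probes that overlap almost wholly and a promoter probe 2111 bases away, shown because the 2 places disagreed.
KRT18 island probe 1, chr5:29959422-29959481: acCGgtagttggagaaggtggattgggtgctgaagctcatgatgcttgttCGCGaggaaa
KRT18 promoter probe 4, chr5:29961533-29961592: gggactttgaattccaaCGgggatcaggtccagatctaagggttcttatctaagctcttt

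KRT18 stayed close to the array median for H3K4me2, with 0.05 in HF2, 0.06 in HF3 and 0.29 in HF5, against 0.13 in SF1, 0.49 in SF4 and -0.25 in SF5. The subfertile bulls enclosed the high-fertile ones, and the difference was 0.01. It averaged opposite signs, with -0.26 in the island block and 0.80 at the promoter probe. For H3K27me3 it read -0.17, -0.21 and 0.10 in HF2, HF3 and HF5, against 0.10, 0.08 and 1.26 in SF1, SF4 and SF5. SF5 stood alone above 5 bulls close to the median, and without it the difference of -0.58 shrank to -0.19. Between HF5 and SF1 on their shared slide the difference was -0.006. The high value lay in the island, where SF5 averaged 1.70, and not at the promoter probe, where it read -0.04. On the H3K4me2 array the promoter probe of SF5 was at -2.01 and its island block at 0.34.

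VWF encodes the blood glycoprotein that tethers platelets and that endothelial cells store and release. Its 7 probes lie at 2 places 46040 bases apart: the first in an island at chr5:111115832-111116272, and the other 6, which share 20 to 56 bases with each other, at chr5:111161872-111161971. A probe of each place is shown because HF3 was low at the second place only.
VWF island probe 1: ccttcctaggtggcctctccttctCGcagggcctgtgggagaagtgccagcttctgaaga
VWF coding probe 6, chr5:111161892-111161951: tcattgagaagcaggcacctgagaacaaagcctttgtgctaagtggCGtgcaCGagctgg

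VWF spread the bulls more widely than any other marker for H3K27me3. It read -1.10 in HF2, -2.52 in HF3 and 1.00 in HF5, against 1.31 in SF1, 0.34 in SF4 and 0.88 in SF5. HF2 and HF3 were far below every subfertile bull, but HF5 was second only to SF1, so the groups overlapped. HF3 ranked at the 0.85 percentile of all genes on its array and SF1 at the 96.7 percentile. The means were -0.87 ± 1.77 in the high-fertile and 0.85 ± 0.49 in the subfertile group, a difference of -1.72, which was -0.90 without HF3, -2.66 without HF5 and -0.31 between HF5 and SF1 on their shared slide. For H3K4me2 the bulls kept much of that order, with -0.38, -1.42 and 0.52 in HF2, HF3 and HF5, against 0.95, -0.18 and -0.01 in SF1, SF4 and SF5, and the difference was -0.68. The 6 overlapping probes of the second place carried it, at -1.92 for H3K27me3 and -0.84 for H3K4me2 (the spot of probe 6 for SF4 on the H3K27me3 array was an outlier and left out). The island probe of the first place differed by -0.52 for H3K27me3 and by 0.33 for H3K4me2.

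The input at VWF diverged too, with an SD over bulls of 0.91, against 0.82 for the H3K4me2 ratio and 1.50 for the H3K27me3 ratio. Relative to the array median it stood at 0.25 in HF2, 1.69 in HF3 and -0.26 in HF5, against -1.05 in SF1, 0.17 in SF4 and -0.21 in SF5, so the bull with the highest input had the lowest ratio for both marks and the bull with the lowest input the highest. For H3K4me2 the ChIP colour alone differed by 0.28 and the input by 0.95. Over the mean input of the 6 bulls the H3K4me2 difference turned to 0.32, and the H3K27me3 difference was -0.75.

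**Figure D2:**
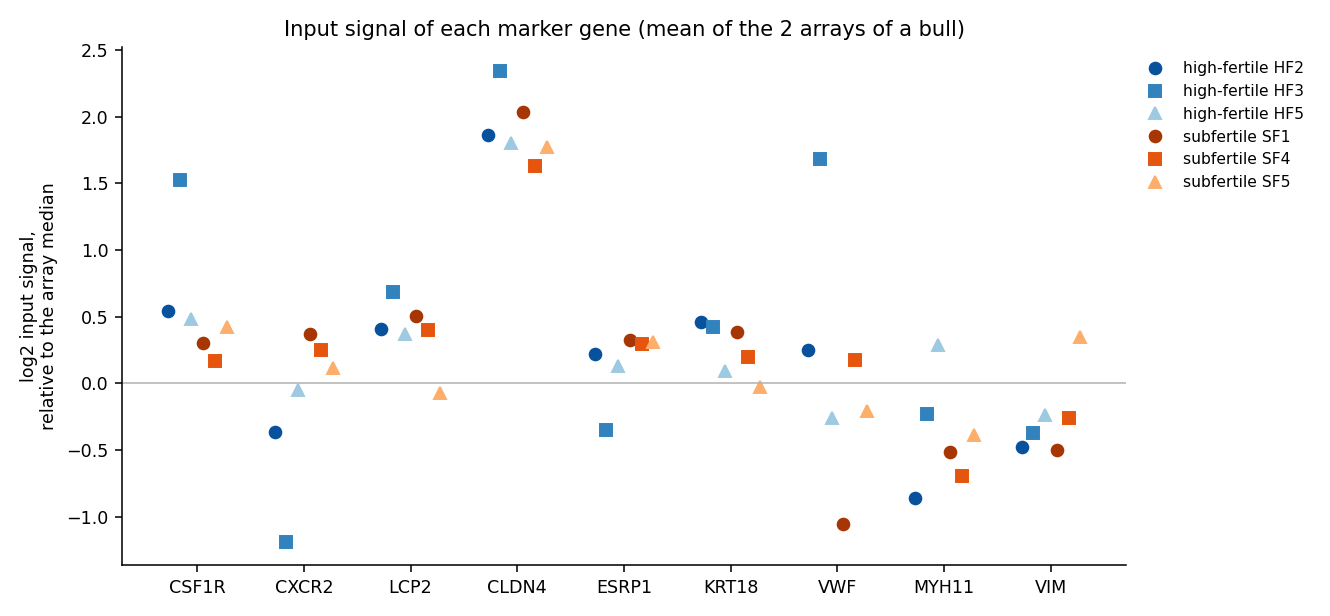
Log2 input signal relative to the array median (vertical axis) for each marker gene; each point is a bull, as the mean of its 2 arrays, high-fertile bulls left of subfertile ones. HF3 is the outermost bull at CSF1R (1.52), CXCR2 (-1.19), CLDN4 (2.34), ESRP1 (-0.35) and VWF (1.69).

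Across the markers, HF3 was the bull whose input lay farthest from the mean of the 6 bulls in 5 of 9 genes, SF5 in 3 and HF5 in 1. Over all tested genes HF3 was farthest in 41.4%. Input is the denominator of the ratio, so the 2 are coupled by construction. The ratio of that bull lay on the opposite side of the mean of the bulls in 7 of 9 markers for H3K4me2, against 88.8% of all genes, and in 9 of 9 for H3K27me3, against 88.7%. The part of input in the ratios of the markers was not tested by these counts.

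MYH11 encodes the myosin heavy chain of smooth muscle. Its 9 probes overlap within 97 bases, chr25:15315100-15315196, and the middle and the last probe are shown because SF5 gave opposite signs at them for H3K4me2.
MYH11 island probe 5, chr25:15315116-15315175: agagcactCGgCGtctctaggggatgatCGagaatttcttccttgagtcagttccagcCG
MYH11 island probe 9, chr25:15315137-15315196: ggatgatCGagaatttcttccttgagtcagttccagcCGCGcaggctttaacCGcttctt

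MYH11 had H3K4me2 values of 0.49 in HF2, -0.56 in HF3 and -0.94 in HF5, against -0.11 in SF1, 0.78 in SF4 and 0.59 in SF5. HF3 and HF5 were the lowest bulls, but HF2 was above SF1, and the means were -0.34 ± 0.74 in the high-fertile and 0.42 ± 0.47 in the subfertile group. The difference of -0.75 kept its sign in all 18 other settings, at -0.37 without HF5 and SF5 and -0.83 between HF5 and SF1. In a split of the probes made after their values were seen, the 5 probes starting up to base 16 of the stretch differed by -0.17, and the 4 starting from base 26 on by -1.49. SF5 averaged -0.46 over the first 5 and 1.89 over the last 4, although probes 5 and 9 share 39 bases. For H3K27me3, MYH11 read -0.35, -0.64 and -0.95 in HF2, HF3 and HF5, against 0.04, -0.67 and -1.10 in SF1, SF4 and SF5. SF1 was the only bull at or above the median, and the groups overlapped with a difference of -0.07. Between HF5 and SF1 on their shared slide the H3K27me3 difference was -0.99.

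VIM encodes vimentin, the intermediate filament protein of mesenchymal cells. It has 35 probes in 7 blocks of overlapping probes, chr13:31475126-31477337 (32 in CpG islands and 3 in promoters). A probe of block 1 and one of block 5 are shown because HF3 was high at the first and low at the other.
VIM island probe 7, chr13:31475171-31475230: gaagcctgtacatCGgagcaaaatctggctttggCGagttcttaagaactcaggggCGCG
VIM island probe 21, chr13:31476983-31477042: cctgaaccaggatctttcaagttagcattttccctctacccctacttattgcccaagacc

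VIM was the only marker above the array median in 6 of 6 bulls for H3K4me2, as were 2.01% of tested genes. It read 0.61 in HF2, 0.15 in HF3 and 0.63 in HF5, against 0.60 in SF1, 0.06 in SF4 and 0.37 in SF5. The groups were interleaved, with means of 0.46 ± 0.27 in the high-fertile and 0.34 ± 0.27 in the subfertile group. For H3K27me3, VIM read 0.69, 0.11 and 1.78 in HF2, HF3 and HF5, against 0.48, 0.68 and -0.48 in SF1, SF4 and SF5. HF5 was the highest and SF5 the only bull below the median. For this mark 0 of 9 markers were above the median in 6 of 6 bulls, against 1.63% of genes. The difference of 0.63 was -0.18 without these 2 bulls and 1.30 between HF5 and SF1 on their shared slide.

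The even gene mean of VIM hid large swings along the gene. In the first 7 probes HF3 averaged 1.85 for H3K4me2 and 1.93 for H3K27me3, and in the 8 probes 1853 to 1940 bases further on -2.39 and -1.38. On the H3K4me2 arrays its input stood at -3.05 in the first block, against -1.22 to -0.36 in the other 5 bulls, and at 1.20 in the later one, against -1.18 to 0.59. The ChIP signal of HF3 was -1.05 in the first block and -1.04 in the later one on the H3K4me2 array, and -1.03 and 0.06 on the H3K27me3 array. HF5 behaved otherwise in the later block, where its H3K27me3 ratio reached 3.41 and its H3K4me2 ratio 0.11 over nearly the same input. Block 3, of 9 probes, 334 to 429 bases from the start, was above the median in 6 of 6 bulls for H3K4me2, at 1.14 in HF2, 1.83 in HF3 and 0.78 in HF5, against 1.02 in SF1, 0.78 in SF4 and 1.76 in SF5.

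**Figure D3:**
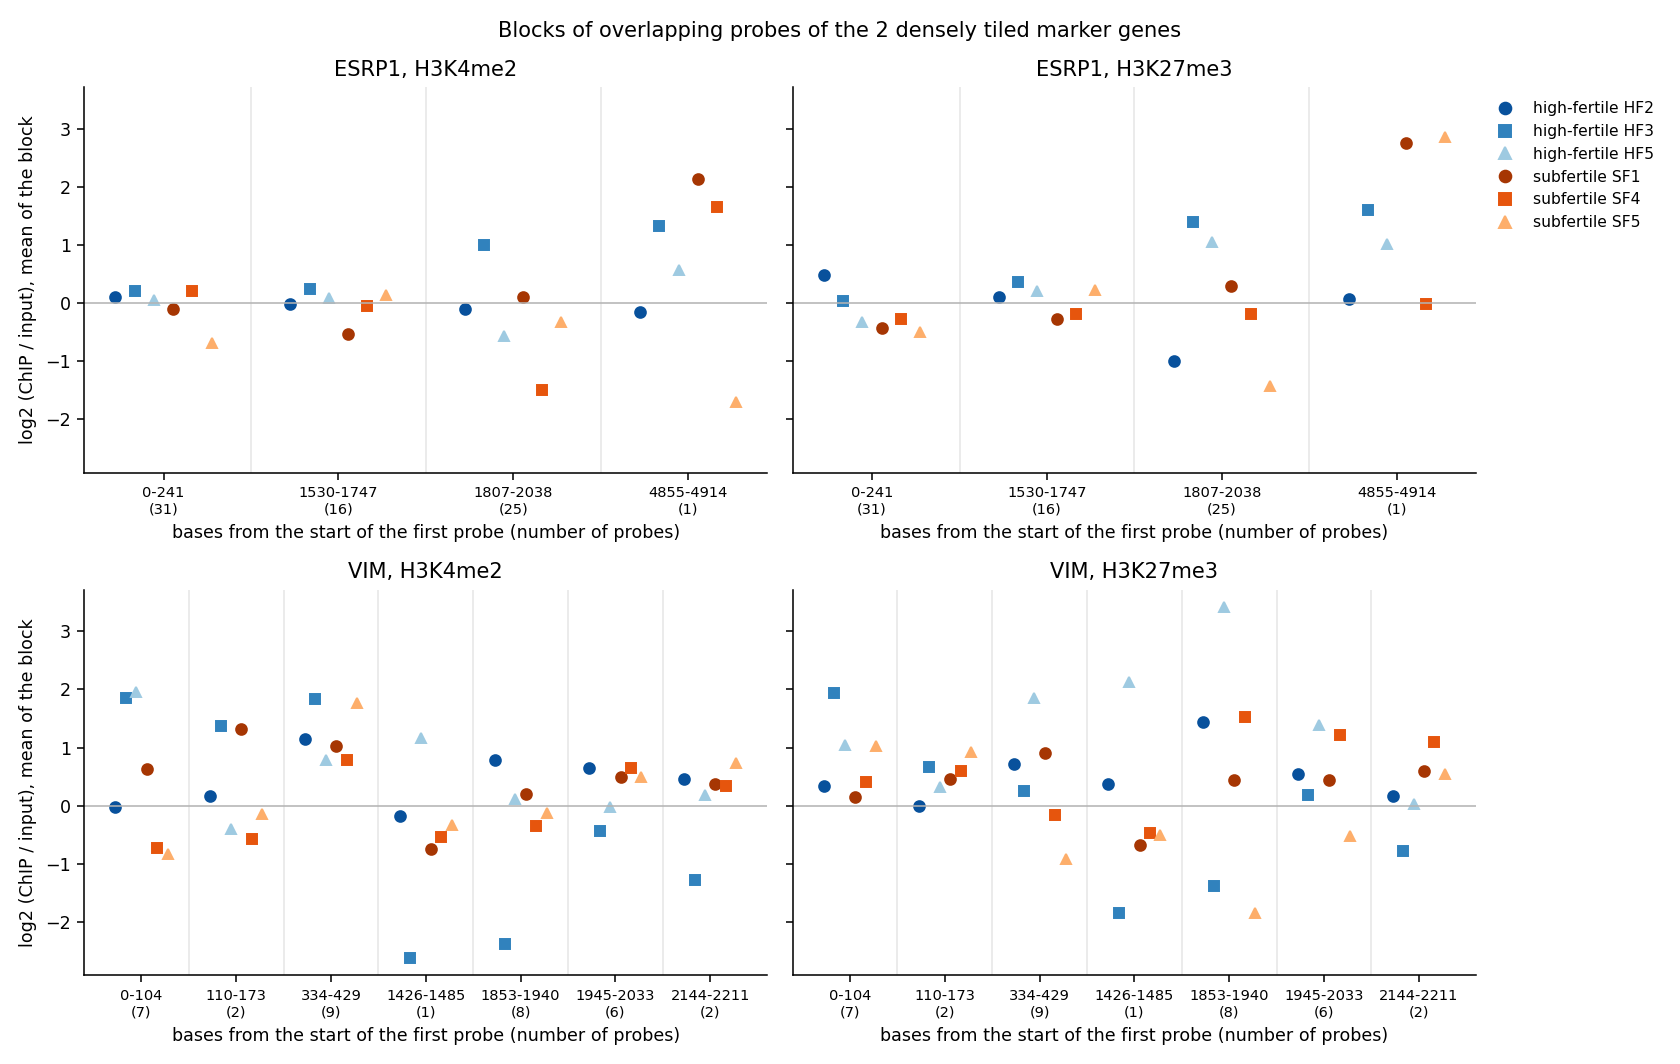
Mean log2 ratio of ChIP over input (vertical axes) in each block of overlapping probes of ESRP1 (top) and VIM (bottom), by bases from the start of the gene's first probe, with the number of probes in brackets; points are bulls, high-fertile left of subfertile. HF3 stands at 1.85 in VIM block 1 and -2.39 in VIM block 5 for H3K4me2, and ESRP1 block 2 holds all bulls between -0.54 and 0.25.

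Counted by block rather than by gene, the 9 markers gave 23 blocks of overlapping probes. The highest minus the lowest bull came to a median of 2.39 log2 units per block for H3K4me2 and 1.88 for H3K27me3.

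Set side by side, the fertility differences of the markers had both signs. For H3K4me2, 4 of 9 were higher in high-fertile bulls (ESRP1, VIM, LCP2 and KRT18, the last at 0.01) and 5 lower. The 5 lower ones include CSF1R and CLDN4, which were chosen on this difference, so nothing is read from that count. For H3K27me3, 4 of 9 were higher (CXCR2, VIM, ESRP1 and CSF1R, the last at 0.00) and 5 lower. No marker had groups without overlap for H3K27me3, where 8.57% of tested genes had (6.58% for H3K4me2) and 4.01% had all high-fertile bulls lower. The 95% confidence interval of the median tested gene reached 1.20 above and below its difference for H3K4me2 and 1.10 for H3K27me3. These widths are those of the median gene and not the markers' own. The marker differences are given without a test and are not set against them. Limma's test called 0 of 6805 genes (0%) for either mark, with 198 and 277 genes at an unadjusted p under 0.05.

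**Figure D4:**
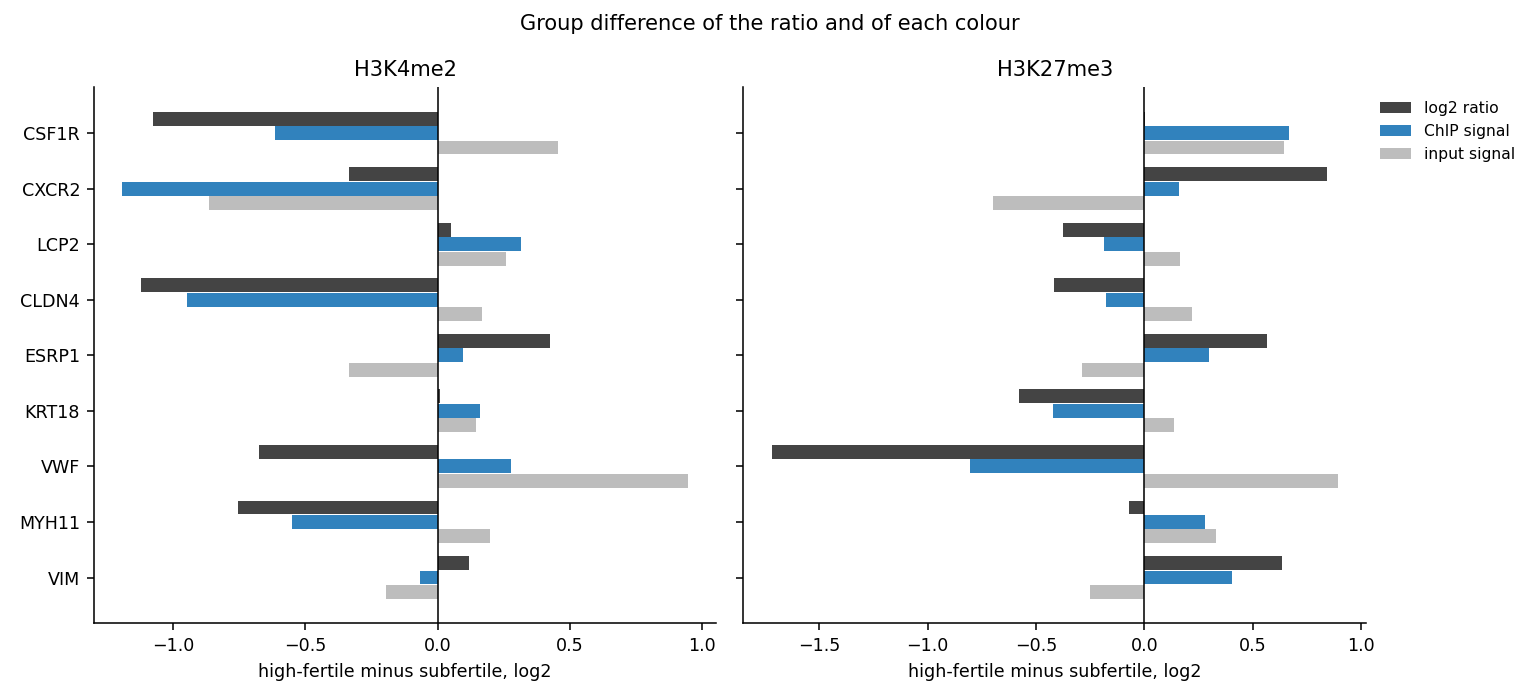
High-fertile minus subfertile difference on the log2 scale (horizontal axes) for each marker gene, of the ratio, of the ChIP signal and of the input signal, each relative to the array median; bars start at 0. At VWF the H3K4me2 ChIP signal differed by 0.28 and the input by 0.95, at CLDN4 by -0.95 and 0.17.

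The levels of the markers, averaged over the 6 bulls, ran for H3K4me2 from CXCR2 (0.58 ± 1.20, SD over bulls) over VIM (0.40 ± 0.25), CSF1R (0.38 ± 0.89), CLDN4 (0.24 ± 0.83), KRT18 (0.13 ± 0.25), MYH11 (0.04 ± 0.69), VWF (-0.09 ± 0.82) and ESRP1 (-0.09 ± 0.34) to LCP2 (-0.47 ± 0.41). For H3K27me3 the order was VIM (0.54 ± 0.75), CXCR2 (0.31 ± 0.89), KRT18 (0.19 ± 0.54), CLDN4 (0.15 ± 0.38), VWF (-0.01 ± 1.50), ESRP1 (-0.03 ± 0.42), CSF1R (-0.07 ± 0.71), MYH11 (-0.61 ± 0.41) and LCP2 (-0.83 ± 0.34). Neighbours in either order differed by at most 0.54, less than the larger SD of the pair in each case, so no step between neighbours exceeded the spread over bulls. The place of CXCR2 rested on SF5: without that bull its level was 0.08 for H3K4me2, below VIM (0.40), CSF1R (0.29) and KRT18 (0.22), and 0.04 for H3K27me3. Against the array median limma called 0 of 6805 genes (0%) for either mark, with 302 genes at an unadjusted p under 0.05 for H3K4me2 and 360 for H3K27me3. LCP2 had the smallest p of the markers, for H3K27me3, at -0.83 with a 95% confidence interval of -1.27 to -0.40, unadjusted p = 0.00223 and adjusted p = 0.920 by limma, and was lower in 6 of 6 bulls. MYH11 followed, for the same mark, at -0.61 (lower in 5 of 6 bulls) with unadjusted p = 0.0208 and adjusted p = 0.920 by limma.

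The marks were compared within each bull, H3K4me2 minus H3K27me3. MYH11 had the largest mean difference, 0.65 ± 0.79 (SD, n = 6 bulls), with 0.85, 0.07 and 0.01 in HF2, HF3 and HF5, against -0.15, 1.45 and 1.69 in SF1, SF4 and SF5. It was positive in 5 of 6 bulls, with 3 of them near 0. With bulls as blocks limma gave it a 95% confidence interval of 0.00 to 1.30, an unadjusted p = 0.0495 and an adjusted p = 0.928. CSF1R followed at 0.45 ± 0.99, of which SF5 alone, at 2.33, gave the larger part. The smallest was ESRP1, at -0.06 ± 0.23. No marker kept its sign in 6 of 6 bulls, as 3.54% of the tested genes did, and limma called 0 of 6805 genes (0%), with 41 at an unadjusted p under 0.05 and, with bulls as blocks, 0 and 283.

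Instead the marks often stood on the same side of the array median within a bull. The signs were equal in 36 of the 54 pairs of marker and bull (66.7%), and in 71.2% of pairs over all genes, so the markers did not exceed the background. Equal signs were found for 8 of 9 markers in HF3, 7 in SF1, 6 in HF5 and in SF4, 5 in HF2 and 4 in SF5. VWF in HF3 was low for both marks (-1.42 and -2.52), and CXCR2 in HF3 (1.07 and 1.61) and SF5 (2.77 and 0.96) high for both. CSF1R in SF5 (1.28 and -1.05) and KRT18 in SF5 (-0.25 and 1.26) were opposed. The 2 arrays of a bull share its input, and the part of that in equal signs was not tested.

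**Figure D5:**
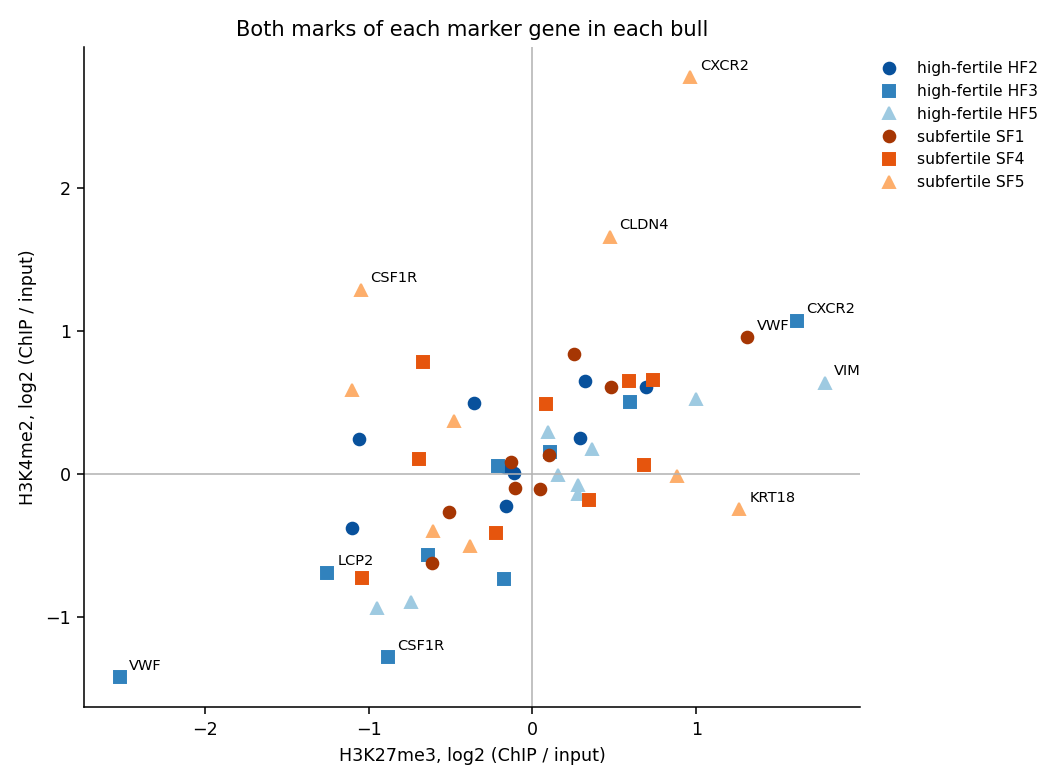
H3K4me2 (vertical axis) against H3K27me3 (horizontal axis), both log2 ratios relative to the array median; each point is a marker gene in a bull, coloured by bull, and the outermost points carry the gene's name. Of 54 points, 36 lie on the same side of 0 for both marks.

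Over the 12 array values, the 9 markers did not follow each other: the 36 pairs had Pearson r from -0.67 (CLDN4 and ESRP1) to 0.61 (CSF1R and MYH11), with a median of -0.02. Among 6681 genes searched, the most alike by Pearson r over the 12 arrays were ZBTB7B for CSF1R (0.95), POLM for CXCR2 (0.95), TTC9C for LCP2 (0.71), NTF3 for CLDN4 (0.97), MLYCD for ESRP1 (0.97), CHERP for KRT18 (0.88), SLC29A2 for MYH11 (0.88) and RAG2 for VIM (0.90). These values describe 12 arrays of 6 bulls, where both arrays of a bull share input and slide. Each r with a most alike gene is the highest among the 6681 genes searched. The highest r of a typical gene was not computed, so no shared behaviour is read from them.

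Wider lists of lineage genes, written with earlier results of these data known, were read by counts. For H3K4me2, high-fertile bulls were higher at 6 and lower at 7 of 13 tested leukocyte genes, 12 and 5 of 17 epithelial, 7 and 5 of 12 endothelial, 5 and 9 of 14 muscle and 6 and 12 of 18 mesenchymal genes. The median differences were -0.07 for leukocyte, 0.14 for epithelial, 0.03 for endothelial, -0.35 for muscle and -0.25 for mesenchymal genes, against -0.02 over all 6805 genes. For H3K27me3 the counts were 8 higher and 5 lower for leukocyte, 6 and 11 for epithelial, 6 and 6 for endothelial, 5 and 9 for muscle and 9 and 9 for mesenchymal genes. The medians there lay between -0.14 and 0.10, against 0.01 over all genes. Limma called 0 genes of any list. By limma, 2.91% of all tested genes had an unadjusted p under 0.05 for H3K4me2 and 4.07% for H3K27me3. Nothing is read from the list counts that follow. The unadjusted p was under 0.05 for 1 epithelial gene at each mark, in both cases the cadherin gene CDH3 (13 probes; 0.55 ± 1.23 in the high-fertile and -1.52 ± 0.39 in the subfertile group for H3K4me2, and a difference of 2.13 for H3K27me3), for 1 muscle gene, SMYD1, for H3K27me3, and for 0 leukocyte, endothelial and mesenchymal genes.

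A pair of further lists served to place these. Of 4 tested genes of somatic testis cells 1 was higher and 3 lower for H3K4me2, and 2 and 2 for H3K27me3. Of 11 tested sperm and germ cell genes 3 were higher and 8 lower for H3K4me2, with a median of -0.19, and 2 and 9 for H3K27me3, with a median of -0.33. At an unadjusted p under 0.05 stood 1 somatic testis gene and 2 sperm and germ cell genes, all for H3K4me2, where 2.91% of all tested genes did, and nothing is read from these counts. The median level over both groups was 0.09 for H3K4me2 and -0.27 for H3K27me3 in sperm and germ cell genes, -0.12 and 0.04 in leukocyte genes and 0.14 and -0.09 in epithelial genes, against 0.06 and 0.00 over all genes. Ratios of this kind give no count of cells, and the share of somatic cells in the semen was not measured.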

How the data were processed

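The intensity of each spot in each colour was produced by the authors in Agilent Feature Extraction 10.7 per the submitters' processing notes (10.7.3.1 per the file headers), with background subtraction and dye normalization within each array. The deposited files also hold a log10 ratio and quality flags of 0 and 1 (another kind of column) per the file headers. A further table, deposited as log2 ratios, was used as an alternative, and the method behind it is not given in the sources used here.

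The log2 ratio of processed Cy5 (ChIP) over processed Cy3 (input) signal was computed for 177440 non-control probes. Probes were kept with input flagged well above background on 6 or more of 12 arrays, outlier spots were set missing, and each array was centred on its median kept probe. A gene is the mean of at least 2 kept probes, which left 6805 of 9328 symbols. All 9 markers were named, at most 1 other gene per list and mark, and per marker the gene of highest Pearson r (for VWF not reported here). Members and lists were chosen with earlier results of these data known. Limma 3.58.1 in R 4.3.3 (lmFit, eBayes, two-sided, Benjamini-Hochberg at 0.05) was run over all genes, after being tested on simulated data. Alternatives were other normalizations and inputs, filters, probe summaries, blocks and left-out bulls. The precision rests on 3 bulls per group; the number of arrays limits it.

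Arrays with the same group and bull number were taken as 1 animal: their inputs, less the 6-bull mean of each gene, had across-gene correlations from 0.949 up (mean 0.969), against 0.186 or less between bulls. Number 5 stands for different bulls in the 2 groups. HF5 and SF1 shared a slide, and the other 4 bulls had a slide each, so there a slide's part cannot be told apart from a bull's. All 9 symbols are also in the buffalo RefSeq gene table. Probe sequences and positions (cattle build HGSC Btau_3.1) come from the array files.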

Additional observations from a re-analysis of the deposited data

Results flagged for a closer look

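KRT18 in SF5 stood apart for H3K27me3. Its value of 1.26353 lay above 5 other bulls between -0.21 and 0.10, with a gap of 0.789 of the whole range, above Dixon's 95% critical value for 6 samples. Of 18 sets of 6 bulls (9 genes, 2 marks) this was 1, and chance gives about 1 in 20. The high values were those of the 3 overlapping island probes.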

How the results depend on the processing

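Limma called 0 of 6805 genes in all 5 comparisons. The count stayed at 0 in all 86 alternative fits, made up of 17 or 18 settings for each comparison. Among the settings were loess, the deposited table, normexp, the mean input, both filters, island probes, the median of probes, slide blocks and every left-out bull. Genes at an unadjusted p under 0.05 ranged from 22 to 758. With bulls as replicate blocks the mark comparison again gave 0 calls, with 283 genes at an unadjusted p under 0.05, against 41 without the block. Fertility groups share only the number 5, which names different bulls, so no pairing enters there. A slide effect within a mark could not be fitted from 6 arrays on 5 slides, and slide was a random block in 1 fit of 12 arrays instead. That setting, the one without HF5 and SF5 and the centring by G and C count were chosen after seeing the data. Of 782 marker values under alternatives, 11 moved by more than the SD between bulls, 7 of them between HF5 and SF1 on their slide. The sign held under every setting for CSF1R, CLDN4 and MYH11 in the H3K4me2 difference. In the H3K27me3 difference it held for CXCR2, LCP2, KRT18 (only -0.006 between HF5 and SF1), ESRP1 and VWF. The cause was not tested.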
